A study of Mus musculus with 62 samples.

Results

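Liver transcripts were compared between mice that ate a diet with 21% of calories from protein after a sleeve gastrectomy (SG P21) and mice that went on eating a Western diet after the same operation (SG WD). The members are 14 libraries, 6 of SG P21 and 8 of SG WD, chosen by the group in their labels, of 57 libraries in the whole series that had a column of counts. Each library is labelled as liver of male C57BL/6J mice and has a serial number of its own, and libraries are called here by their order within their group. Separate mice are taken from the serial numbers, the mice were housed in pairs, and p-values measure the spread between libraries. A further SG P21 library, number 6 of its group, was labelled and is not analysed here.

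Both groups share the same history up to day 7 after surgery, the days around the operation on a recovery gel diet included. They ate the Western diet, high in fat and sucrose, for 12 weeks from 5 weeks of age and had the sleeve gastrectomy at 17 weeks, an operation that removes about 75% of the stomach. The SG P21 mice then ate a diet with 20% of calories from fat and 21% from protein. The SG WD mice ate the diet of before, with 42% of calories from fat, 15.2% from protein and 42.7% from carbohydrate. The diets thus differ in fat, carbohydrate and protein together, which cannot be told apart here. Liver was taken 14 weeks after surgery, when the mice had fasted for 16 h and been refed their diet for 4 h. Sham-operated mice on the same diets, 7 on P21 and 8 on WD, were used to test whether the diet difference depended on the operation, and entered the common fit that sets the spread behind each p-value.

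The liver makes cholesterol and fatty acids, stores fat in droplets and sends lipids out in lipoproteins and bile. Cholesterol synthesis is switched on by the transcription factor SREBP2 when sterols in the cell run low. When sterols are plentiful, the receptor LXR instead turns on genes that export them. In fatty livers of mice on rich diets, macrophages that take up lipid gather and stellate cells lay down collagen.

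Total counts ran from 6.99 to 26.31 M (mega-counts) in SG P21 libraries, where library 4 had the fewest, and from 20.27 to 33.28 M in SG WD libraries. Levels are CPM, counts relative to the total of the library after TMM scaling, and a run of 3 levels gives the lowest, the median and the highest library of a group. Fold changes are log2 values, SG P21 over SG WD, ± standard error. P-values come from edgeR's quasi-likelihood test, with Benjamini-Hochberg adjustment across every gene tested, and a gene is called when its adjusted p is under 0.05. The 11 defining hepatocyte genes were present in all libraries (5 rose and 0 fell), with summed levels of 85760 to 136600 CPM in SG P21 livers and 65090 to 107400 CPM in SG WD livers.

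SG WD libraries 5 and 7 stood apart from the other 6 of their group. They correlated with each other at Pearson's r = 0.977 and with the other SG WD libraries at 0.923 to 0.96 over log2 CPM of the genes tested. On the second principal component they lay at -51.7 and -47.5, against 24.5 to 51.7 for the other 6 SG WD libraries and -33.1 to -4.79 for SG P21. They held high levels of Saa1, an acute phase protein (16740 and 11920 CPM), and of S100a8, a protein of neutrophils (456 and 393 CPM). SG P21 library 5 also had a high Saa1 level, 7709 CPM. The other 6 SG WD libraries were not all alike either. SG WD library 1 correlated with the other 5 of them at 0.928 to 0.963, against 0.958 to 0.987 among those 5. On the first principal component it lay at -63.1, beside libraries 5 and 7 at -73.1 and -60.6, with those 5 at -24.1 to 9. Because SG WD libraries 5 and 7 stood apart, counts of genes are given over all 14 libraries and without them, called the 6-against-6 comparison below. The 2 libraries were doubted with earlier results of these data known, and by levels of genes that are also tested here. Where they held levels near those of SG P21, as for cholesterol genes, leaving them out raises the fold change by construction. The 6-against-6 p-values are thus not independent support for those over all libraries. A single gene is given over all 14 libraries, and in the 6-against-6 comparison as well wherever that changed its call or moved a called value by more than 1.5 times.

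**Figure D1:**
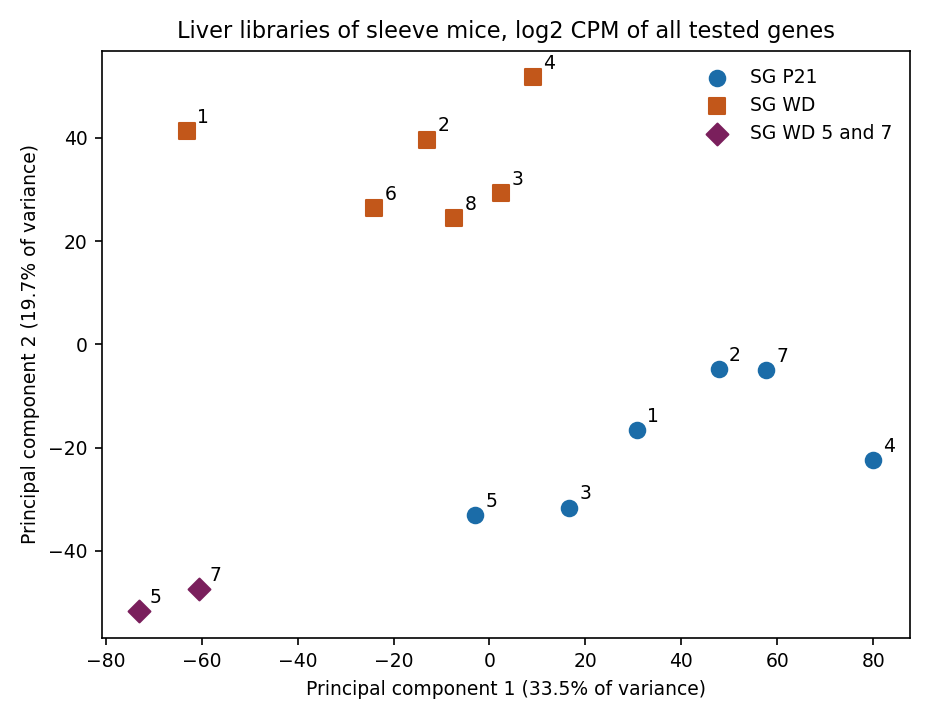
Position of the 14 libraries on the first (x axis, 33.5% of variance) and second (y axis, 19.7% of variance) principal components of log2 CPM. Points are libraries, numbered within their group. The SG P21 libraries (circles) and 6 of the SG WD libraries (squares) part along the second component, while SG WD 5 and 7 (diamonds) lie at -51.7 and -47.5 on it.

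Over all 14 libraries 1998 of 16087 genes tested were higher (12.4%) and 2746 lower (17.1%) in SG P21 livers. In the 6-against-6 comparison 1877 of 15943 genes were higher (11.8%) and 2421 lower (15.2%). Of these calls 3551 were shared in the same direction, 74.9% of the first list and 82.6% of the second, and 0 went opposite ways. The median log2 fold change over all genes was -0.04, and -0.05 in the 6-against-6 comparison. The split of calls moved with the scaling of libraries and with the test. Higher genes made up 42.1% of the calls in edgeR with TMM scaling and 39% in edgeR with RLE scaling. With limma-voom they made up 50.1% after TMM scaling and 27.5% on total counts alone, where the median of all genes was -0.13. A fit of the 14 libraries alone, without the sham and other groups, called 1376 genes higher and 1832 lower. The counts of each list of genes below are read against these shares of all genes. Those of apolipoproteins, amino acid breakdown and female-predominant genes, among others, held shares near them and are described for their single genes. Overlap between groups is told for single genes, many of them named for a low adjusted p, which favours groups that lie apart. The share of all genes whose groups lay apart was not counted.

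Genes of cholesterol synthesis and uptake were higher in SG P21 livers nearly throughout. Of 25 tested, 21 rose and 0 fell over all libraries, with a median log2 fold change of 1.27. In the 6-against-6 comparison 24 rose and 0 fell, with a median of 2.53. With the 14 libraries fitted alone, 9 rose. Insig1, which holds back the activation of SREBP2, stood at 446, 507 and 587 CPM in SG P21 livers, against 38.8, 57.5 and 358 CPM in SG WD livers. It rose by 1.94 ± 0.37 (adjusted p = 0.00012), and by 3.09 ± 0.30 (adjusted p = 8.3e-11) in the 6-against-6 comparison. The lowest SG P21 library lay above the highest SG WD library, and the highest SG WD levels, 358 and 353 CPM, were those of libraries 5 and 7.

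Sqle, which makes squalene epoxide, had 62.9, 101 and 166 CPM in SG P21 livers and 0.512, 4.13 and 126 CPM in SG WD livers. Its SG WD libraries 5 and 7 held 122 and 126 CPM, within the SG P21 range, and the other 6 held 0.512 to 7.77 CPM. The fold change of Sqle was 1.68 ± 0.61 over all libraries (adjusted p = 0.0322) and 5.03 ± 0.43 in the 6-against-6 comparison (adjusted p = 2.99e-12). The first of these calls was lost when SG WD library 1, 2, 3, 6 or 8 or SG P21 library 3 or 4 was left out, with adjusted p-values of 0.0512 to 0.077, and with the 14 libraries fitted alone (adjusted p = 0.243). With limma-voom the fold change of Sqle over all libraries was 3.96 (adjusted p = 8.51e-06), and 3.92 on total counts alone (adjusted p = 1.55e-05). Idi1, an isomerase early in the pathway, rose by 1.78 ± 0.60 (adjusted p = 0.0208), a call lost without SG P21 library 3 (adjusted p = 0.0544) and with the 14 libraries alone (0.187), and by 4.97 ± 0.42 (adjusted p = 2.99e-12) in the 6-against-6 comparison. Limma-voom gave 3.77 (adjusted p = 1.86e-05) for Idi1 over all libraries, and 3.62 on total counts alone (adjusted p = 3.06e-05).

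Further members of the pathway rose as well. Nsdhl, a late enzyme, rose by 1.81 ± 0.44 (adjusted p = 0.00192; 0.0553 with the 14 libraries alone) and by 3.57 ± 0.33 (adjusted p = 3.39e-11) in the 6-against-6 comparison. Sc5d, the desaturase near its end, rose by 1.14 ± 0.24 (adjusted p = 0.000399) and by 1.61 ± 0.22 (adjusted p = 4.5e-07) in the 6-against-6 comparison. Stard4, which carries cholesterol between membranes, held 92.3, 107 and 149.8 CPM in SG P21 livers, against 22.4, 30.4 and 86.5 CPM in SG WD livers, and the groups did not overlap. It rose by 1.39 ± 0.20 (adjusted p = 4.11e-06) and by 1.85 ± 0.17 (adjusted p = 5.16e-11) without the pair of libraries. Srebf2, the gene of SREBP2 itself, rose by 0.54 ± 0.19 (adjusted p = 0.0247) and by 0.94 ± 0.16 (adjusted p = 3.36e-05) in the 6-against-6 comparison. Its call over all libraries was lost when SG WD library 1, 2, 6 or 8 or SG P21 library 3 or 5 was left out, with adjusted p-values of 0.0522 to 0.0837, and with limma-voom on total counts alone (adjusted p = 0.057) or the 14 libraries alone (0.127).

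**Figure D2:**
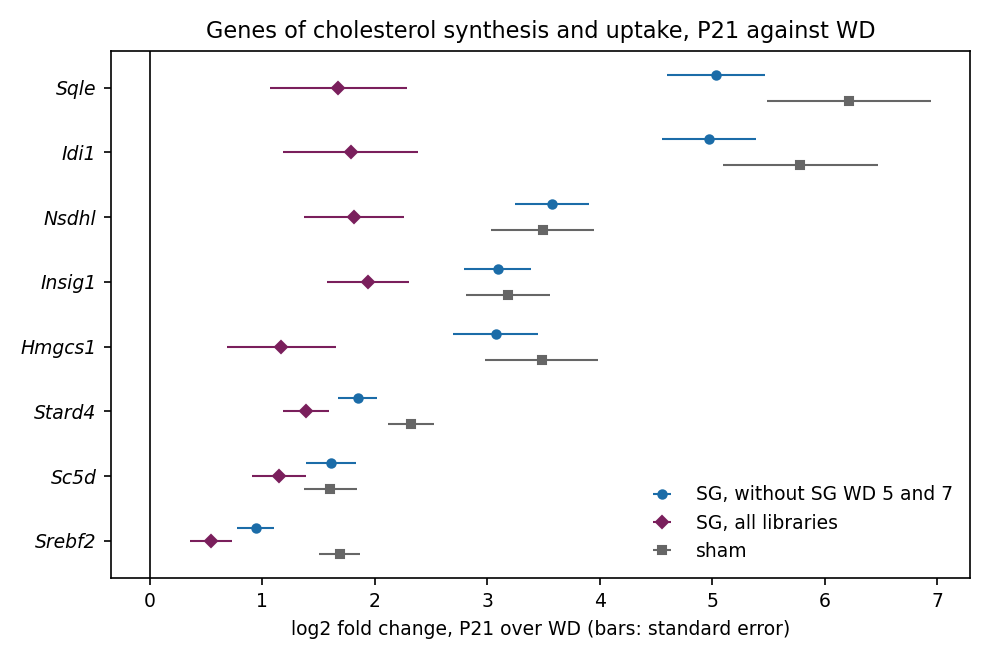
Log2 fold changes of P21 over WD (x axis, bars give the standard error) for the 8 genes named here of the 25 of cholesterol synthesis and uptake (y axis). Circles are the 6-against-6 comparison in SG mice, diamonds all 14 SG libraries and squares sham mice. For Sqle the 3 estimates are 5.03, 1.68 and 6.21, and all 8 genes lie above 0 in each.

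Promoters were looked up for these genes because they moved together. RefSeq's table for GRCm38.p6 holds a promoter for 17 of the 25. In the 250 bases before the start of transcription, CCAAT or its complement ATTGG, the core of sites bound by NF-Y, stood in 16 of the 17, against 33.8% of all 32851 promoters in the table. The motif TCACNCCAC or its complement GTGGNGTGA, a form of the sterol response element, stood in 1 of the 17, Hmgcs1, against 1.05% of all promoters. Both strands were searched, and a match is a description of the letters. A list gene counts once if any of its promoters matches, while the share of all promoters counts each promoter singly. That share is not limited to genes tested here. The sequences of 4 of them follow, 5′ to 3′ on the plus strand, with matches of either motif in capitals. Hmgcs1, an early enzyme, was chosen for its match after the values were seen and was not called over all libraries, at 1.17 ± 0.48 (adjusted p = 0.0614). In the 6-against-6 comparison it had 3.07 ± 0.38 (adjusted p = 3.88e-08). The others are genes named above. The windows are chr5:28071162-28071411 for Insig1, chr13:8885356-8885605 for Idi1, chrX:72918271-72918520 for Nsdhl and chr13:119690101-119690350 for Hmgcs1.
Insig1: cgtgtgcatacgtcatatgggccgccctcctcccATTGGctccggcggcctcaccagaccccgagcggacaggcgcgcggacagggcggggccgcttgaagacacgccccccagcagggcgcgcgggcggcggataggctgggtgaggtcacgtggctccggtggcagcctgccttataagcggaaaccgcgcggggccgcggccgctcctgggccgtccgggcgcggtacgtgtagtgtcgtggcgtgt
Idi1: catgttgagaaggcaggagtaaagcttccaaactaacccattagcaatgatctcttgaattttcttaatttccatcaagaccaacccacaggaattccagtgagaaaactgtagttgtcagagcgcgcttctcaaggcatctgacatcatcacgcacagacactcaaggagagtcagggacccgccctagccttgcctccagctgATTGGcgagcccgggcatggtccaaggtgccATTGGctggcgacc
Nsdhl: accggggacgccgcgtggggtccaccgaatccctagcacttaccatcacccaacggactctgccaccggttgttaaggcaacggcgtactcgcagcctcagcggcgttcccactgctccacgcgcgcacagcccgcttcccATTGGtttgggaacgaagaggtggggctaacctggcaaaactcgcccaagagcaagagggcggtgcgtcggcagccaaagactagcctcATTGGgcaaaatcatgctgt
Hmgcs1: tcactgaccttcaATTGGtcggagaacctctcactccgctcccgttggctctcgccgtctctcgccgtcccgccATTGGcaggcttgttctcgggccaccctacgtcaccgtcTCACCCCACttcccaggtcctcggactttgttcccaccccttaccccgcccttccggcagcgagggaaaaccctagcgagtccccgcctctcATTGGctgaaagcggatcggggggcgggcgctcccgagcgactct
Insig1 has 1 CCAAT match in its window, Idi1 and Nsdhl have 2 each and Hmgcs1 has 3.

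Genes that export sterols moved the other way. Of 14 tested genes of sterol efflux and LXR targets, 0 rose and 9 fell (median -0.58), and 8 fell in the 6-against-6 comparison (median -0.58). Abcg5 and Abcg8 form the pump that passes sterols into bile. Abcg5 held 36.7, 48.3 and 74.9 CPM in SG P21 livers, against 62.6, 117 and 219 CPM in SG WD livers, and Abcg8 held 30.5, 41.6 and 62.4 CPM in SG P21 livers, against 59, 98.1 and 162 CPM in SG WD livers. Both overlapped only through SG WD library 5. Abcg5 fell with -1.35 ± 0.25 (adjusted p = 8.84e-05) and Abcg8 with -1.22 ± 0.22 (adjusted p = 8.03e-05). Abcg1, which loads cholesterol onto HDL, had 3.73 to 9.88 CPM in SG P21 livers and 11.7 to 23.9 CPM in SG WD livers with no overlap, and fell with -1.33 ± 0.20 (adjusted p = 4.04e-06). Pltp, which moves phospholipid between lipoproteins, fell with -1.25 ± 0.27 (adjusted p = 0.000472), its groups also apart.

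Bile acid genes changed in part. Of 20 tested, 7 rose and 2 fell (median 0.40), and 4 rose and 2 fell in the 6-against-6 comparison (median 0.22). With the 14 libraries alone 4 rose. Abcb11, the pump that passes bile acids into bile, held 322, 369 and 421 CPM in SG P21 livers, against 166, 231 and 274 CPM in SG WD livers. The groups did not overlap, and Abcb11 rose by 0.76 ± 0.14 (adjusted p = 7.22e-05). Slc10a1, which takes bile acids up from blood, rose by 0.94 ± 0.21 (adjusted p = 0.000929). Slco1a1, an organic anion carrier higher in male mice, held 90.6 to 252 CPM in SG P21 livers, against 3.97 to 55.4 CPM in SG WD livers, and rose by 2.68 ± 0.65 (adjusted p = 0.00184). Abcb4, which passes phospholipid into bile, fell with -0.69 ± 0.17 (adjusted p = 0.00177). Cyp7a1, the rate-limiting enzyme of bile acid synthesis, was not called, at 0.43 ± 0.40 (adjusted p = 0.433), with 53.2, 151 and 201 CPM in SG P21 livers and 18.3, 112 and 160 CPM in SG WD livers.

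Transcripts for proteins of lipid droplets were lower in SG P21 livers. Of 20 tested droplet genes and PPARG targets 15 fell and 0 rose (median -1.06), and 17 fell in the 6-against-6 comparison (median -1.28). Cidec, which fuses droplets into larger ones, stood at 2.69, 7.86 and 25.9 CPM in SG P21 livers, against 8.37, 114 and 159 CPM in SG WD livers. SG WD libraries 5 and 7, with 18.6 and 8.37 CPM, lay among the SG P21 livers and the other 6 held 88.8 to 159 CPM. Cidec fell with -3.18 ± 0.54 (adjusted p = 2.85e-05), or -3.56 ± 0.49 (adjusted p = 4.5e-07) in the 6-against-6 comparison. Plin2, which coats droplets, held 245, 299.5 and 379 CPM in SG P21 livers and 266, 707 and 923 CPM in SG WD livers, and fell with -1.08 ± 0.21 (adjusted p = 0.000152).

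The overlap of Plin2 was again through SG WD libraries 5 and 7. Plin4, another coat protein, fell with -2.63 ± 0.46 (adjusted p = 4.23e-05), and Fitm2, needed for droplets to bud, with -1.08 ± 0.21 (adjusted p = 0.000187). Pparg, the receptor that drives many of these genes, fell with -0.99 ± 0.21 (adjusted p = 0.000396). Cidea, a relative of Cidec, fell with -2.18 ± 0.73 (adjusted p = 0.0211). This call was lost when SG P21 library 1, 3 or 4 was left out, with adjusted p-values of 0.0504 to 0.0548, and with the 14 libraries alone (0.0751).

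Fatty acid synthesis had no single direction. Of 21 tested genes 5 rose and 2 fell (median 0.23), and 7 rose and 2 fell in the 6-against-6 comparison (median 0.34). Without SG P21 library 7 the number that rose was 3. Scd1, which puts the double bond into stearate, held 1629, 2657 and 3943 CPM in SG P21 livers, against 3959, 12110 and 18980 CPM in SG WD livers. The groups did not overlap, and Scd1 fell with -2.12 ± 0.35 (adjusted p = 2.25e-05). Elovl5, which lengthens polyunsaturated chains, fell with -0.58 ± 0.17 (adjusted p = 0.00728), whereas Fads1, which desaturates such chains, rose by 0.60 ± 0.13 (adjusted p = 0.00042). Acss2, which makes acetyl-CoA from acetate, rose by 1.05 ± 0.29 (adjusted p = 0.00487) and by 1.62 ± 0.26 (adjusted p = 9.44e-06) in the 6-against-6 comparison. Fasn, the synthase itself, was not called, at 0.68 ± 0.38 (adjusted p = 0.177), nor was Srebf1, the gene of its activator SREBP1, at -0.41 ± 0.27 (adjusted p = 0.25).

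Genes of fatty acid oxidation changed in part. Of 36 tested genes 3 rose and 10 fell (median -0.08), and 3 rose and 13 fell in the 6-against-6 comparison (median -0.33). With the 14 libraries alone 5 fell. Those that rose were Cyp4a14, Cyp4a31 and Cyp4a10, omega-hydroxylases of fatty acids and targets of the receptor PPARA, of which the last was named after its value was seen and not called with the 14 libraries alone (adjusted p = 0.0657). Cyp4a14 held 2322, 3478 and 5021 CPM in SG P21 livers, against 63.9, 745 and 1250 CPM in SG WD livers, with no overlap. It rose by 2.49 ± 0.38 (adjusted p = 8.11e-06), and Cyp4a31 by 1.35 ± 0.27 (adjusted p = 0.000304). Cyp4a genes are near-identical copies, so that shared reads make the split between them uncertain.

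Enzymes in mitochondria were among those that fell. Acads, which starts the oxidation of short chains, held 66.3, 82.1 and 100.3 CPM in SG P21 livers and 95.6, 159 and 177 CPM in SG WD livers and fell with -0.84 ± 0.14 (adjusted p = 1.82e-05). Cpt1a, the gate of fatty acid entry into mitochondria, fell with -0.73 ± 0.18 (adjusted p = 0.00171). Acads overlapped only through SG WD library 5, and Cpt1a through 5 and 7.

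**Figure D3:**
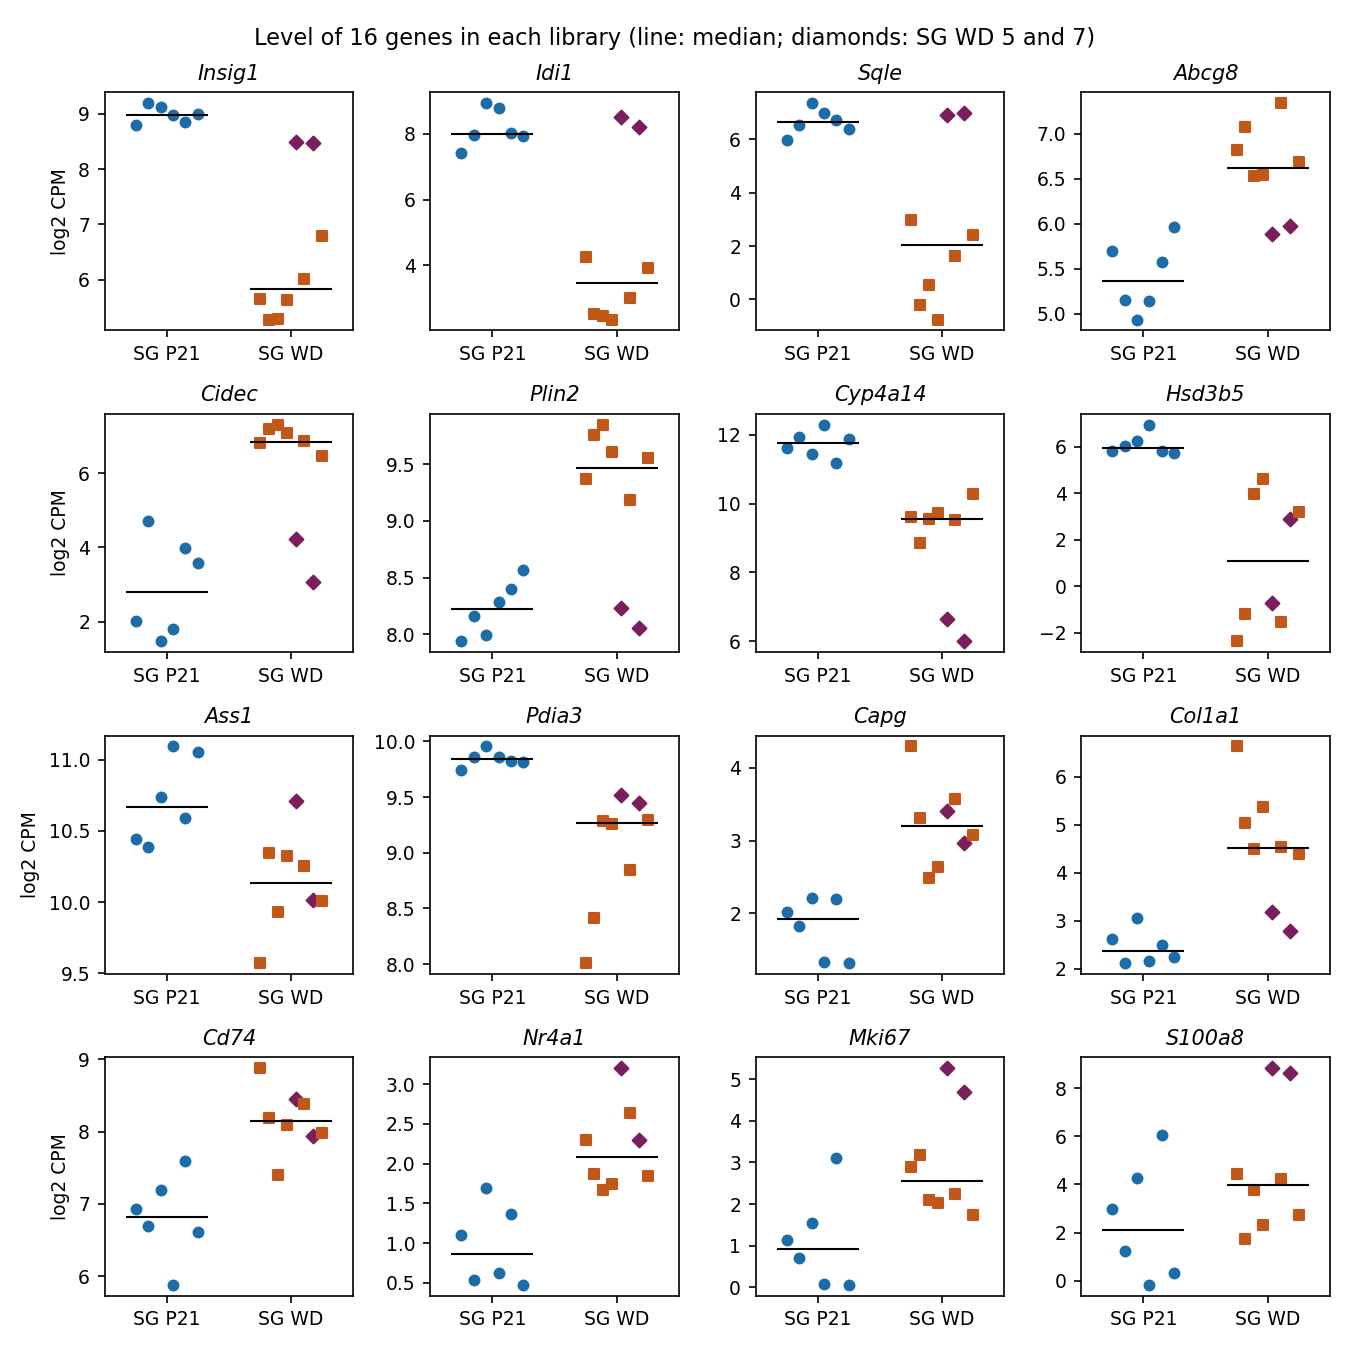
Log2 CPM (y axes) of 16 genes in each SG P21 library (circles) and SG WD library (squares, with libraries 5 and 7 as diamonds), with the median of each group as a line. For Idi1, Sqle and Cidec the diamonds lie among the SG P21 libraries, and for Mki67 and S100a8 they are the highest of all 14.

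Among apolipoproteins and assembly factors 3 of 20 rose and 3 fell (median 0.04), and 3 rose and 4 fell in the 6-against-6 comparison. Without SG WD library 4 the number that rose was 5. Apoa4, an apolipoprotein that mouse liver makes when fat is plentiful, held 496, 803 and 1205 CPM in SG P21 livers, against 1251, 3746 and 5390 CPM in SG WD livers. It fell with -2.04 ± 0.40 (adjusted p = 0.000216), and Apoc2, the activator of lipoprotein lipase, with -0.96 ± 0.19 (adjusted p = 0.000276). Neither overlapped between the groups. Apom, carrier of sphingosine phosphate on HDL, rose by 0.83 ± 0.17 (adjusted p = 0.00042), and Apoh, a plasma protein that binds phospholipid, by 0.59 ± 0.14 (adjusted p = 0.00128), which the 12 libraries of the 6-against-6 comparison fitted alone did not call (0.0805).

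Glucose genes fell more often than they rose. Of 25 tested genes of glycolysis and glucose production 2 rose and 9 fell (median -0.30), and 2 rose and 8 fell in the 6-against-6 comparison (median -0.40). Pgam1, a glycolytic mutase, had 108 to 128 CPM in SG P21 livers and 133 to 179.7 CPM in SG WD livers with no overlap, and fell with -0.39 ± 0.09 (adjusted p = 0.00113). Hk1, a hexokinase, fell with -0.91 ± 0.22 (adjusted p = 0.00157). Those that rose were Ppargc1a, a coactivator of glucose production, by 0.79 ± 0.18 (adjusted p = 0.00124), and Gckr, a regulatory protein of glucose metabolism, by 0.49 ± 0.11 (adjusted p = 0.00135). The Gckr call was lost with limma-voom on total counts alone (adjusted p = 0.0531), where 1 gene of the list rose. Pck1, of glucose production, was not called, at -0.64 ± 0.32 (adjusted p = 0.126), though it passed with the 14 libraries alone (-0.66, adjusted p = 0.0485).

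Of 18 genes of insulin and glucagon signalling 3 rose and 0 fell (median -0.11), and 2 rose in the 6-against-6 comparison. A pair of these target protein phosphatase to glycogen. Ppp1r3b held 423, 542 and 788 CPM in SG P21 livers, against 160.5, 270 and 387 CPM in SG WD livers, with no overlap, and rose by 1.07 ± 0.21 (adjusted p = 0.000167). Ppp1r3c rose by 1.07 ± 0.23 (adjusted p = 0.000542). Irs1, a docking protein of the insulin receptor, rose by 0.54 ± 0.17 (adjusted p = 0.0154), a call lost in the 6-against-6 comparison (adjusted p = 0.11), with the 14 libraries alone (0.0633), with limma-voom on total counts (0.0933) and without SG P21 library 4 (0.0511).

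Genes of the urea cycle rose in part. Of 8 urea cycle genes 3 rose and 0 fell (median 0.35), the same numbers as in the 6-against-6 comparison. Cps1, its first enzyme, held 1429, 2023 and 2520 CPM in SG P21 livers, against 769, 1089 and 1663 CPM in SG WD livers, and rose by 0.81 ± 0.24 (adjusted p = 0.00879). Ass1, which joins citrulline and aspartate, rose by 0.57 ± 0.16 (adjusted p = 0.00705). Arg1, which releases urea, rose by 0.39 ± 0.14 (adjusted p = 0.0278), a call lost with no filter on low counts, with limma-voom on total counts alone, with the 14 libraries alone and when SG WD library 1, 2, 7 or 8 or SG P21 library 3, 4 or 7 was left out, with adjusted p-values of 0.0535 to 0.113.

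In amino acid breakdown 7 of 54 genes rose and 5 fell (median 0.07), against 7 and 8 in the 6-against-6 comparison. With limma-voom on total counts alone or no filter on low counts 4 rose, and the number that rose was 3 without SG WD library 1 and 4 without SG WD library 8 or SG P21 library 3 or 4. Acmsd, of tryptophan breakdown, rose by 1.18 ± 0.27 (adjusted p = 0.00123) and by 1.78 ± 0.25 (adjusted p = 8.64e-07) in the 6-against-6 comparison. Bckdha, of branched-chain amino acid breakdown, held 59.8, 104 and 120.1 CPM in SG P21 livers, against 111, 192 and 315 CPM in SG WD livers, and fell (adjusted p = 0.000129), with -1.20 ± 0.19 (adjusted p = 6.94e-06) in the 6-against-6 comparison. Oat, which breaks down ornithine, held 582, 669.5 and 966 CPM in SG P21 livers and 871, 1653 and 2704 CPM in SG WD livers, and fell with -1.24 ± 0.25 (adjusted p = 0.000316).

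Targets of ATF4, which cells switch on when amino acids run short, are described for their single genes. Of 33 tested 2 rose and 8 fell (median -0.46), and 2 rose and 5 fell in the 6-against-6 comparison. All genes had 17.1% lower, and 15.2% in the 6-against-6 comparison, where the count of the list lay near that share. The number that fell was 5 without SG WD library 5 or SG P21 library 1 and 4 without SG P21 library 7, and limma-voom gave 3. The number that rose was 0 without SG WD library 1, 3 or 8 or SG P21 library 3, 4 or 7 and 1 without SG WD library 2 or 6 or SG P21 library 2 or 5. Aldh18a1, of proline synthesis, fell with -1.26 ± 0.35 (adjusted p = 0.0051; 0.0667 with the 12 libraries of the 6-against-6 comparison alone), and Eif4ebp1, a brake on translation, with -0.62 ± 0.17 (adjusted p = 0.00513). Asns, asparagine synthetase, was not called, at 0.05 ± 0.54 (adjusted p = 0.959). Fgf21, a liver hormone, was not called over all libraries, at -1.29 ± 0.59 (adjusted p = 0.0905), but passed in the 6-against-6 comparison, at -1.59 ± 0.60 (adjusted p = 0.0436), and without SG P21 library 2 (-1.72, adjusted p = 0.0429).

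Chaperones and disulfide isomerases of the endoplasmic reticulum rose in part. Of 26 tested 6 rose and 1 fell (median 0.18), and 9 rose and 0 fell in the 6-against-6 comparison (median 0.42). The number that rose was 3 without SG WD library 1, 2 or 6 or SG P21 library 5, and the number that fell was 0 to 2 with 1 library left out. All genes had 12.4% higher over the 14 libraries, and a count of 3 lies near that share. Pdia3, a disulfide isomerase, held 855, 916 and 993 CPM in SG P21 livers, against 258, 617 and 733 CPM in SG WD livers. The groups did not overlap, and Pdia3 rose by 0.76 ± 0.20 (adjusted p = 0.00347). Dnajb11, a partner of the chaperone BiP, rose by 0.77 ± 0.22 (adjusted p = 0.00756). Pdia6, another isomerase, and Derl3, of the disposal of misfolded proteins, rose by 0.62 ± 0.21 (adjusted p = 0.0233) and 1.74 ± 0.65 (adjusted p = 0.0373). The Pdia6 call was lost without SG WD library 1, 2 or 6 or SG P21 library 3 or 5 (adjusted p-values of 0.0533 to 0.0827), and with the 14 libraries alone (0.0583). That of Derl3 was lost without SG WD library 1, 2 or 6 or SG P21 library 1, 2 or 5 (0.0539 to 0.0807), and with no filter on low counts (0.0542).

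Genes that male mouse liver expresses above female liver were in part higher in SG P21 mice. Of 33 tested 8 rose and 0 fell (median 0.60), and 7 rose and 0 fell in the 6-against-6 comparison (median 0.39). Limma-voom called 13 higher. As a mean of log2 CPM over its members, relative to the 14 libraries, the list stood at 0.18 to 1.47 in SG P21 libraries. SG WD libraries 3 and 4 lay within that range, at 0.83 and 1.08, and the other SG WD libraries at -1.76 to -0.15. Hsd3b5, a steroid dehydrogenase, held 53.6, 61.9 and 124 CPM in SG P21 livers, against 0.115, 3.91 and 24.6 CPM in SG WD livers. The SG WD libraries spread widely and still lay below every SG P21 library. Hsd3b5 had the highest fold change of the genes named by size, 3.33 ± 0.96 (adjusted p = 0.00773), or 5.24 with limma-voom (adjusted p = 4.92e-05). Serpina1e, a protease inhibitor, rose by 2.92 ± 0.83 (adjusted p = 0.00649), and Mup21, a major urinary protein, by 2.01 ± 0.41 (adjusted p = 0.000337). Both belong to families of near-identical genes whose shared reads make single members uncertain. Gstp1, a glutathione transferase, rose by 0.93 ± 0.24 (adjusted p = 0.00325).

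The counterpart list, genes that female liver expresses above male liver, had 4 of 22 higher and 3 lower (median 0.01), and 3 higher and 4 lower in the 6-against-6 comparison. Without SG P21 library 7 the number that fell was 5. Cyp2c40, a P450, rose by 2.17 ± 0.48 (adjusted p = 0.000727). Of 14 genes of the IGF1 axis and growth hormone signalling 2 rose and 2 fell, and 0 rose and 3 fell in the 6-against-6 comparison. Stat5a, which carries the signal of growth hormone, fell with -0.58 ± 0.12 (adjusted p = 0.000253), with 8.59 to 12.9 CPM in SG P21 livers and 14.7 to 19.1 CPM in SG WD livers, apart from each other. Stat5b, which does the same, fell with -0.33 ± 0.12 (adjusted p = 0.0354), a call lost with no filter on low counts (0.0518) and without SG WD library 8 or SG P21 library 2, 3 or 4 (0.0534 to 0.0923). Ghr, the growth hormone receptor, rose by 0.52 ± 0.14 (adjusted p = 0.00519), a call lost in the 6-against-6 comparison (adjusted p = 0.0564) and with the 14 libraries alone (0.0546). Igf1, the growth factor that the hormone induces, rose by 0.38 ± 0.14 (adjusted p = 0.042), but the call was lost in the 6-against-6 comparison (adjusted p = 0.0795), and with RLE scaling, no filter on low counts, limma-voom on total counts alone or the 14 libraries alone (0.0516 to 0.161). It was also lost without SG WD library 1, 2, 3, 5, 6, 7 or 8 or SG P21 library 1, 2, 4 or 7 (0.0522 to 0.147).

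Genes of the zones of the lobule changed singly. Of 22 periportal genes 8 rose and 1 fell (median 0.22), with 5 that rose without SG WD library 1, and 9 rose and 1 fell in the 6-against-6 comparison. Of 24 pericentral genes 2 rose and 6 fell (median -0.10), and 2 rose and 7 fell in the 6-against-6 comparison. Etnppl, a phospholyase of periportal cells, rose by 1.77 ± 0.36 (adjusted p = 0.000267) with no overlap of the groups. Rhbg, an ammonium carrier of pericentral cells, held 1.3, 3.46 and 4.35 CPM in SG P21 livers, against 7.13, 14.3 and 32.8 CPM in SG WD livers, and fell with -2.28 ± 0.38 (adjusted p = 2.35e-05). Avpr1a, the vasopressin receptor of the same cells, rose by 1.76 ± 0.29 (adjusted p = 1.96e-05), and its groups did not overlap either. Nipal1, a magnesium carrier named for the size of its change, rose by 2.01 ± 0.53 (adjusted p = 0.00361).

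Transcripts of scar matrix and stellate cells were lower in SG P21 livers. Of 42 tested 23 fell and 0 rose (median -0.85), and 27 fell in the 6-against-6 comparison (median -1.04), and 15 with limma-voom over all libraries. In bulk liver, fewer cells of a type and less RNA per cell cannot be told apart. Col1a1, a chain of fibrillar collagen, held 4.26, 5.12 and 8.29 CPM in SG P21 livers, against 6.82, 22.7 and 99 CPM in SG WD livers, the highest of these in SG WD library 1. It fell with -2.51 ± 0.52 (adjusted p = 0.000365), or -2.85 ± 0.50 (adjusted p = 3.66e-05) in the 6-against-6 comparison, where the groups did not overlap. Col4a1, of basement membrane, had no overlap and fell with -1.50 ± 0.25 (adjusted p = 1.92e-05). Lgals1, a galectin of mesenchymal cells, fell with -2.17 ± 0.33 (adjusted p = 8.13e-06).

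Markers of lipid-associated macrophages fell alongside. Of 14 tested 11 fell and 0 rose (median -1.29), and 10 fell in the 6-against-6 comparison (median -1.44). Their summed level was 689 to 924 CPM in SG P21 livers and 1046 to 1819 CPM in SG WD livers. Much of this sum was Plin2, also a droplet gene, whose levels are given above. In sham livers Plin2 and Ctsd averaged 398 and 334 CPM on P21, and 720 and 512 CPM on WD. Capg held only 2.41 to 4.53 CPM in SG P21 livers and 5.52 to 19.6 CPM in SG WD livers. The sum thus does not stand for these macrophages alone. Trem2, the lipid receptor that defines these cells, held 0.81, 1.84 and 2.58 CPM in SG P21 livers, against 3.82, 5.21 and 8.75 CPM in SG WD livers. The groups did not overlap, and Trem2 fell with -1.60 ± 0.39 (adjusted p = 0.00204). Capg, which caps actin filaments, fell with -1.46 ± 0.29 (adjusted p = 0.0002), Lgals3, a galectin of macrophages, with -1.97 ± 0.41 (adjusted p = 0.000358), and Ctsd, a lysosomal protease, with -0.59 ± 0.12 (adjusted p = 0.00044). None of these overlapped between the groups. Gpnmb, a lysosomal membrane protein, fell with -1.72 ± 0.61 (adjusted p = 0.0273), a call lost with limma-voom (adjusted p = 0.243; 0.239 on total counts alone) and without SG WD library 2 or SG P21 library 2, 4 or 7 (0.0528 to 0.0647). Mmp12, an elastase of macrophages, fell with -2.37 ± 0.63 (adjusted p = 0.00391), which limma-voom did not call (adjusted p = 0.115; 0.12 on total counts alone).

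Other macrophage lists depended on SG WD libraries 5 and 7. Of 15 genes of monocytes and recruited macrophages 11 fell (median -1.14), but 5 in the 6-against-6 comparison (median -0.73), 6 without SG WD library 5 alone and 7 without SG P21 library 2, 4 or 7, while limma-voom and the 14 libraries alone gave 6. Cd68, a lysosomal protein of macrophages, had 7.29 to 22.2 CPM in SG P21 livers and 23.9 to 53.4 CPM in SG WD livers, without overlap, and fell with -1.14 ± 0.31 (adjusted p = 0.00485), or -0.95 ± 0.32 (adjusted p = 0.0208) in the 6-against-6 comparison. Ccl2, which draws monocytes in, fell with -1.38 ± 0.37 (adjusted p = 0.00415), and Fcgr1, an antibody receptor, with -1.26 ± 0.29 (adjusted p = 0.00127). Cd14, a receptor for bacterial lipopolysaccharide, fell with -2.50 ± 0.65 (adjusted p = 0.00344), but had -0.92 ± 0.55 (adjusted p = 0.216) in the 6-against-6 comparison. Of 12 Kupffer cell markers 4 fell (median -0.70), against 0 by edgeR in the 6-against-6 comparison (median -0.21; 3 at an unadjusted p under 0.05) and 2 without SG P21 library 4. Clec4f, which defines mouse Kupffer cells, had -0.89 ± 0.28 (adjusted p = 0.0139) over all libraries, -0.51 ± 0.26 (adjusted p = 0.148) in the 6-against-6 comparison and lost its call without SG P21 library 4 (adjusted p = 0.0507). Folr2 and Cd5l, proteins of resident macrophages, lost their calls too, with adjusted p-values of 0.00686 and 0.00894 over all libraries and 0.053 and 0.0687 in the 6-against-6 comparison.

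Transcripts of antigen presentation were in part lower too, as was Themis among T cell genes. Of 15 genes of MHC class II and dendritic cells 8 fell, and 8 in the 6-against-6 comparison (medians -0.97 and -1.03). Cd74, the chaperone of MHC class II, held 59, 113 and 194 CPM in SG P21 livers, against 169, 282 and 469.8 CPM in SG WD livers, with an overlap only through SG WD library 3. It fell with -1.30 ± 0.30 (adjusted p = 0.0011). H2-Ab1, a chain of MHC class II, and H2-DMa, which loads it, fell with -1.37 ± 0.32 (adjusted p = 0.00119) and -1.41 ± 0.30 (adjusted p = 0.000506). Themis, a signalling protein of T cells, held 0.598, 0.756 and 1.89 CPM in SG P21 livers, against 3.93, 19.5 and 36.2 CPM in SG WD livers, without overlap. It fell with -4.26 ± 0.56 (adjusted p = 8.07e-07), among 8 of 23 T and natural killer cell genes that fell (median -0.63). That number was 6 in the 6-against-6 comparison, 3 without SG WD library 1, 4 without SG P21 library 2 and 5 without SG WD library 5 or SG P21 library 1 or 4, and limma-voom and the 14 libraries alone gave 2. Only Themis and Tox of this list had a mean log2 CPM of at least 1, and the other members were low. The list summed to 15.7 to 26 CPM in SG P21 livers and 37 to 76.3 CPM in SG WD livers, Themis included.

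Interferon-induced genes did not share a direction, with 4 of 38 higher and 9 lower (median -0.11), and 3 higher and 9 lower in the 6-against-6 comparison. The number that rose was 2 without SG WD library 6 or 8 or SG P21 library 3, 4, 5 or 7. Ubd, a ubiquitin-like protein induced in inflammation, held 0.162, 1.23 and 3.1 CPM in SG P21 livers, against 7.93, 15.7 and 31.9 CPM in SG WD livers. The groups did not overlap, and Ubd fell with -3.50 ± 0.56 (adjusted p = 1.48e-05). Ifi27l2a, an interferon-induced membrane protein, fell with -1.63 ± 0.31 (adjusted p = 0.000157). Ly6d, a small surface protein found on bile duct and other epithelia, held 1.13, 2.46 and 10.6 CPM in SG P21 livers, against 28.6, 75.5 and 111 CPM in SG WD livers, and fell with -4.26 ± 0.66 (adjusted p = 9.93e-06). Ephb2, a receptor of cell contact, fell with -3.97 ± 0.64 (adjusted p = 1.52e-05). The bile duct and keratin list that holds Ly6d had 7 of 17 genes lower and 1 higher, 6 lower and 1 higher in the 6-against-6 comparison, and 3 lower without SG WD library 1 or with limma-voom.

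**Figure D4:**
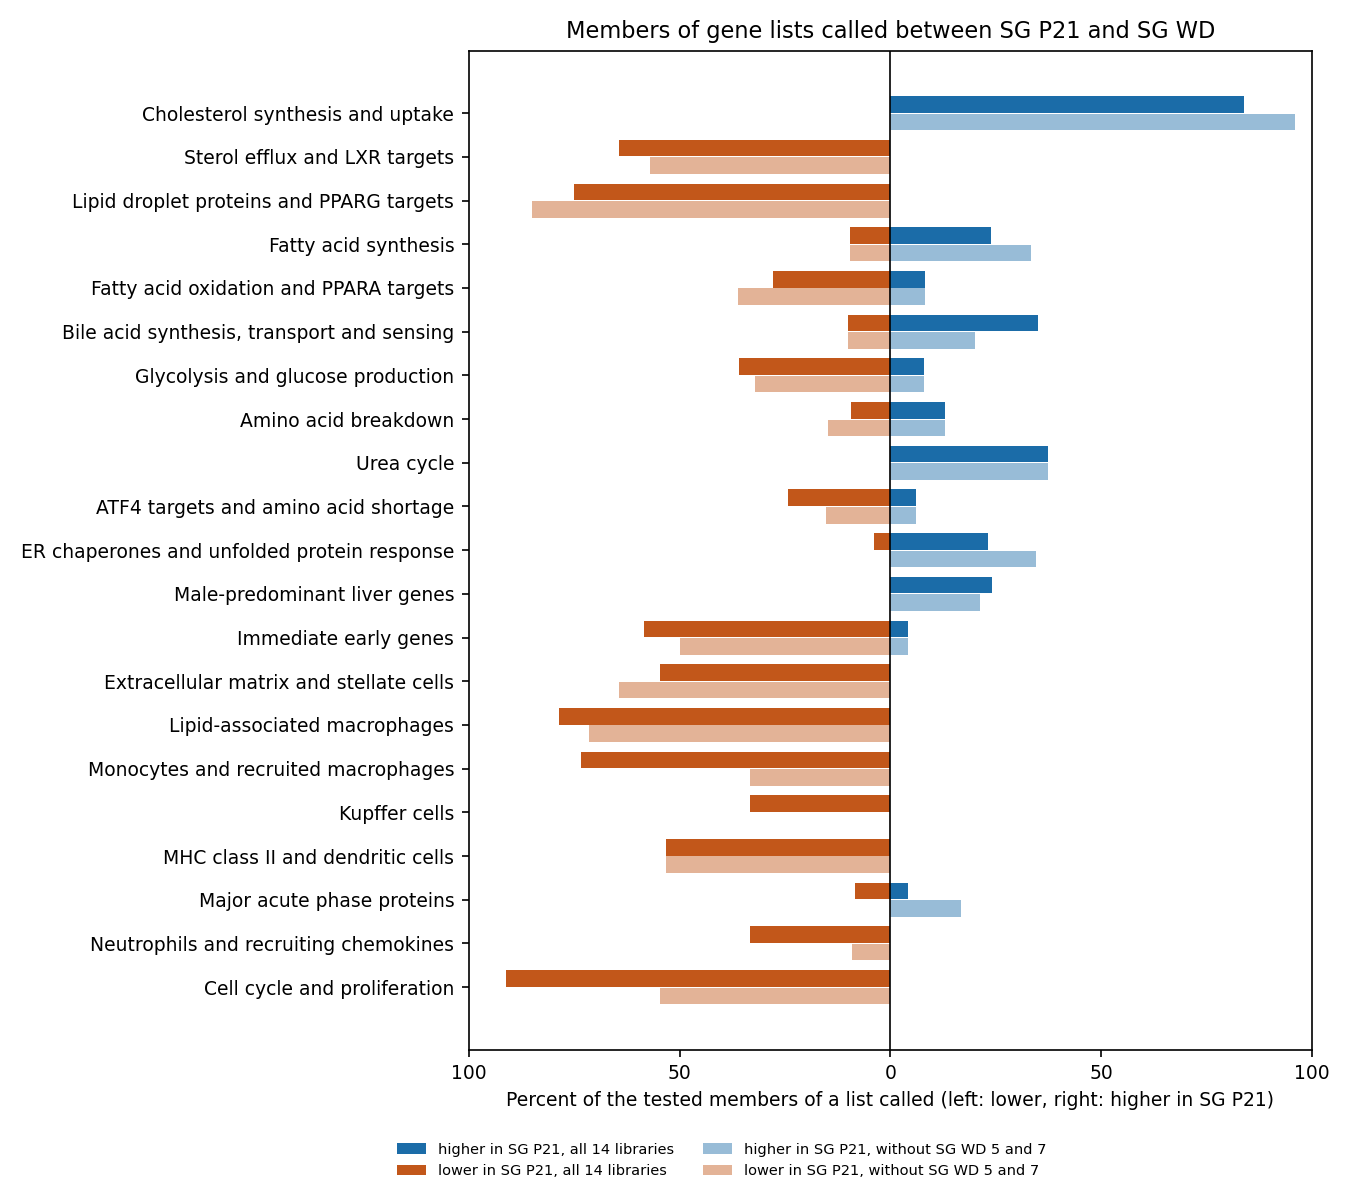
Percent of the tested members of each gene list (y axis) called higher (right) or lower (left) in SG P21 livers (x axis), over all 14 libraries (dark bars) and without SG WD libraries 5 and 7 (pale bars). Over all genes 12.4% were called higher and 17.1% lower. Cholesterol genes lie to the right and droplet, matrix and lipid-associated macrophage genes to the left under both, while the Kupffer cell bar is absent without SG WD 5 and 7.

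Cell cycle genes were lower in SG P21 livers. Of 34 tested 31 fell and 0 rose (median -1.63), and 18 of 33 fell in the 6-against-6 comparison (median -1.08). Mcm2 and Mcm3 are parts of the helicase that opens DNA for replication. Mcm3 held 3.59, 4.28 and 6.29 CPM in SG P21 livers, against 7.92, 9.16 and 16.7 CPM in SG WD livers, and fell with -1.15 ± 0.22 (adjusted p = 0.000134). Mcm2 held 1.31 to 4.59 CPM in SG P21 livers and 5 to 12 CPM in SG WD livers, and fell with -1.57 ± 0.30 (adjusted p = 0.000155). Neither overlapped between the groups. Mki67, a mark of dividing cells, held 0.962, 1.83 and 8.54 CPM in SG P21 livers, against 3.24, 5.99 and 38.4 CPM in SG WD livers, the highest being library 5 with 38.4 and library 7 with 25.6 CPM. It fell with -2.05 ± 0.54 (adjusted p = 0.0037), a call lost in the 6-against-6 comparison, at -0.91 ± 0.47 (adjusted p = 0.149).

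Immediate early genes, which cells switch on within minutes of a stimulus, were mostly lower. Of 24 tested 1 rose and 14 fell (median -1.17), and 1 rose and 12 fell in the 6-against-6 comparison (median -1.09). The number that fell was 9 without SG WD library 1 or SG P21 library 1, 2 or 7. Jun, a subunit of the factor AP-1, held 3.56, 9.4 and 11.5 CPM in SG P21 livers and 9.21, 20.3 and 34.7 CPM in SG WD livers, and fell with -1.25 ± 0.32 (adjusted p = 0.00295). Fosl2 and Jund, further subunits, fell with -0.81 ± 0.20 (adjusted p = 0.00198) and -1.31 ± 0.34 (adjusted p = 0.00353). Nr4a1, a nuclear receptor of this kind, fell with -1.26 ± 0.32 (adjusted p = 0.00243).

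Acute phase and neutrophil genes turned on the libraries that stood apart. Of 24 major acute phase genes 1 rose and 2 fell (median -0.52), but 4 rose and 0 fell in the 6-against-6 comparison (median 0.23), 11 fell without SG P21 library 5, and 3 rose without SG WD library 5. Saa1 held 11.7, 244 and 7709 CPM in SG P21 livers, against 212, 758 and 16740 CPM in SG WD livers. Its highest SG P21 level was that of library 5, and the 6 other SG WD libraries held 212 to 871 CPM. The fold change of Saa1 was -1.42 ± 1.14 (adjusted p = 0.36), 1.51 ± 1.09 (adjusted p = 0.313) in the 6-against-6 comparison and -4.13 (adjusted p = 0.0143) without SG P21 library 5. Il1rn, which blocks interleukin 1, fell with -1.83 ± 0.50 (adjusted p = 0.00499), but had -1.06 ± 0.47 (adjusted p = 0.0866) in the 6-against-6 comparison.

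Of 12 genes of neutrophils and the chemokines that draw them 4 fell (median -1.72), and 1 of 11 in the 6-against-6 comparison (median 0.50). The number was 1 without SG WD library 5, 2 without SG WD library 7 or SG P21 library 4 or 7, 7 without SG WD library 2 and 10 without SG P21 library 5. Their summed level was 1665 and 1338 CPM in SG WD libraries 5 and 7, 432 CPM in SG P21 library 5, 15.9 to 141 CPM in the other SG P21 libraries and 32.6 to 151 CPM in the other SG WD libraries. The fold change of S100a8 was -2.78 ± 0.93 (adjusted p = 0.0203) over all libraries and 0.50 ± 0.76 (adjusted p = 0.661) in the 6-against-6 comparison. S100a9, its partner, had -2.39 ± 0.91 (adjusted p = 0.0418) and 0.85 ± 0.74 (adjusted p = 0.41). These signs were thus reversed by 2 libraries, and leaving out SG WD library 5 or 7 alone, or SG P21 library 4 or 7, also ended both calls (adjusted p-values of 0.0505 to 0.17). Without SG P21 library 5 the fold changes were -4.18 (adjusted p = 0.00211) and -3.67 (adjusted p = 0.0049). That of S100a9 ended as well without SG P21 library 1, 2 or 3 (0.0544 to 0.089). Limma-voom (0.111 and 0.125) and the 14 libraries alone (0.137 and 0.194) called neither.

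**Figure D5:**
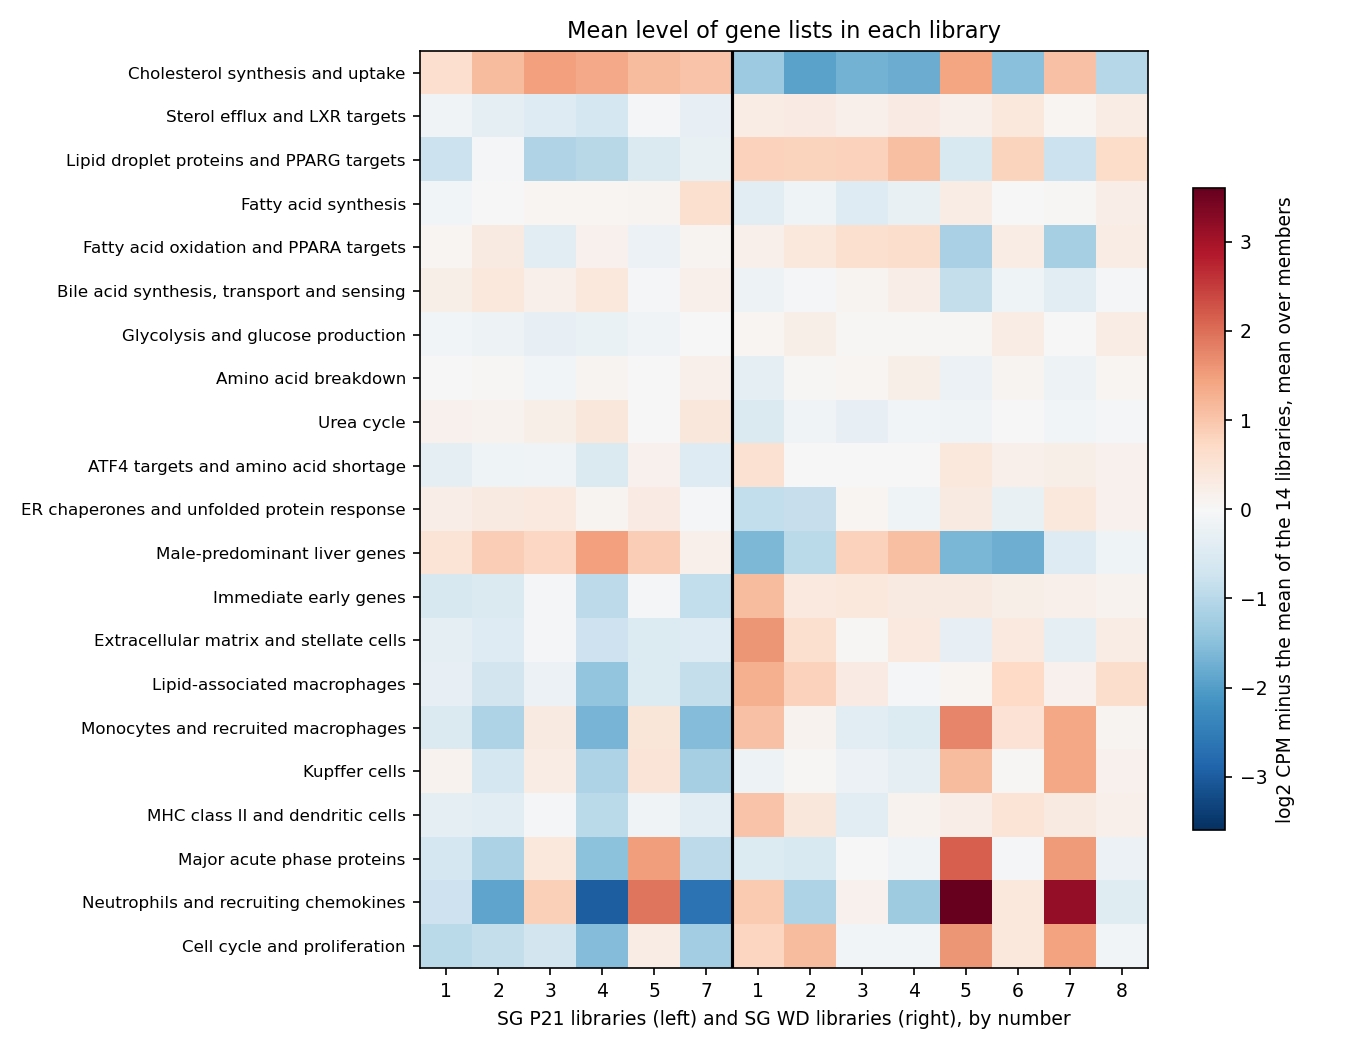
Mean log2 CPM of the members of each list (rows) in each library (columns, SG P21 left and SG WD right), relative to the mean of the 14 libraries. SG WD libraries 5 and 7 share the high cholesterol genes of SG P21, with 1.42 and 1.06 against -1.92 to -1.03 in the other SG WD libraries, and carry the highest neutrophil genes, 3.59 and 3.18.

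Genes that other tissues also express held some of the lowest fold changes. Slc5a1 and the skeletal muscle markers each lost their calls when 1 SG WD liver was left out. Cfd, a complement factor made by fat cells, had the lowest of the genes named by size, -6.20 ± 1.32 (adjusted p = 0.000487), with 0.384, 0.902 and 2.34 CPM in SG P21 livers and 0.354, 39.1 and 334 CPM in SG WD livers. Of 9 adipocyte markers 4 fell (median -1.24), the same number as in the 6-against-6 comparison. Fabp4, which binds fatty acids in fat cells and macrophages, held 12.7, 17.4 and 25.6 CPM in SG P21 livers, against 26, 44.1 and 67.8 CPM in SG WD livers, without overlap, and fell with -1.34 ± 0.42 (adjusted p = 0.0141). Adipoq, a hormone of fat cells named after its values were seen, did not part the groups. It held 0.04 to 2.59 CPM in SG P21 livers and 0 to 3.33 CPM in SG WD livers. The summed level of the list was 1733 to 4937 CPM in SG P21 livers and 176 to 5861 CPM in SG WD livers. Most of it was Car3, a carbonic anhydrase that liver also makes, named after its values were seen, at 1705 to 4898 CPM in SG P21 livers and 108 to 5315 CPM in SG WD livers. Car3 was not called, at 0.48 ± 0.45 (adjusted p = 0.441). The rest of the list summed to 27.4 to 64.6 CPM in SG P21 livers and 39.3 to 546 CPM in SG WD livers. SG WD libraries 3 and 4 had the highest of these sums, 460 and 546 CPM, and held 0 CPM of Adipoq. Of 8 skeletal muscle markers 7 fell (median -4.84), the same number as in the 6-against-6 comparison, but 0 without SG WD library 4 and 0 with limma-voom or the 14 libraries alone. Their summed level was 73.9 CPM in that library, 0.645 to 1.3 CPM in SG P21 livers and 0.525 to 1.86 CPM in the other SG WD livers. Slc5a1, the glucose carrier of gut, held 138 CPM in SG WD library 1, against 1.62 to 4.26 CPM in SG P21 livers. Its fold change was -2.87 ± 0.74 (adjusted p = 0.00308), but 0.50 (adjusted p = 0.277) without that library, and limma-voom (adjusted p = 0.692) and the 14 libraries alone (0.101) did not call it. Ace, of blood vessels and gut, had -2.85 ± 0.58 (adjusted p = 0.000285) and -0.99 (adjusted p = 0.0192) without it or -1.52 with limma-voom (adjusted p = 0.034), and Pls1, an actin bundler of gut villi, -2.82 ± 0.66 (adjusted p = 0.00126) and -1.62 (adjusted p = 0.0227). In sham livers Slc5a1, Ace and Pls1 averaged 1.76, 1.25 and 0.97 CPM on P21, and 2.92, 2.67 and 8.06 CPM on WD. Of 9 mesothelial and gut markers 3 fell, and 3 in the 6-against-6 comparison, but 1 without SG WD library 1, where their summed level was 645 CPM, against 104 to 204 CPM in SG P21 livers. Of 9 erythroid markers 4 fell (median -1.39), and 4 in the 6-against-6 comparison, with a summed level of 232 to 484 CPM in SG P21 livers and 368 to 1699 CPM in SG WD livers. Whether tissue other than liver was in these libraries was not tested, nor its part in the other results.

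The last comparison asked whether the diet difference in sleeve mice was another one than in sham mice, where the same 25 cholesterol genes had 25 higher and 0 lower on P21 (median 3.12). The difference of the 2 diet effects, SG minus sham, was called for 20 of 16087 genes (0.124%), 5 higher and 15 lower, and for 101 of 15943 (0.634%) without SG WD libraries 5 and 7, 15 higher and 86 lower. With SG P21 library 2, 4 or 7 left out it was called for 0 genes by edgeR, with 1999, 1880 and 1853 at an unadjusted p under 0.05, and without SG P21 library 5 for 144. Sqle and Idi1 were called, with differences of -4.54 ± 0.92 (adjusted p = 0.0336) and -4.00 ± 0.87 (adjusted p = 0.0344). Sham mice held 62.7 to 190.4 CPM of Sqle on P21 and 0.942 to 2.93 CPM on WD, and 193 to 523 CPM of Idi1 on P21 and 4.75 to 11.4 CPM on WD. Without SG WD libraries 5 and 7 the differences were -1.21 ± 0.52 (adjusted p = 0.231) and -0.84 ± 0.48 (adjusted p = 0.395).

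The other genes named by this difference kept their calls without SG WD libraries 5 and 7, but not without SG P21 library 2, 4 or 7. Parp10, an ADP-ribosyltransferase induced by interferon, held 15.7, 17.3 and 24.6 CPM in SG P21 livers and 23.4, 26.5 and 29.1 CPM in SG WD livers, and 27.2 to 36.7 CPM in sham P21 livers and 17.7 to 29.2 CPM in sham WD livers. It was lower on P21 in sleeve mice and higher on P21 in sham mice, with a difference of -0.87 ± 0.17 (adjusted p = 0.0293), or -0.89 ± 0.18 (adjusted p = 0.0171) without the pair of libraries. Ogfr, the opioid growth factor receptor, likewise fell in sleeve mice (-0.39 ± 0.12, adjusted p = 0.00903) and rose in sham mice (0.38 ± 0.11, adjusted p = 0.00633), a difference of -0.77 ± 0.16 (adjusted p = 0.0336). Nlrx1, a mitochondrial protein of innate immunity, held 5.99 to 7.81 CPM in SG P21 livers and 10.3 to 12.1 CPM in SG WD livers, without overlap. In sham mice it held 8.73 to 14.3 CPM on P21 and 8.44 to 11.1 CPM on WD, and the difference was -0.73 ± 0.15 (adjusted p = 0.0336). Poll, a DNA repair polymerase, had a difference of -0.81 ± 0.17 (adjusted p = 0.0336), with 4.26 to 6.13 CPM in SG P21 livers and 6.89 to 9.24 CPM in SG WD livers. Zfp948, a zinc finger protein, was the 1 of the 10 genes named here with a positive difference, 0.95 ± 0.20 (adjusted p = 0.0336), and held 6.37 to 9.56 CPM in SG P21 livers and 2.58 to 5.2 CPM in SG WD livers, against 4.2 to 6.13 CPM in sham P21 livers and 4.26 to 6.47 CPM in sham WD livers. D17H6S53E, Szrd1, Dpp3, a dipeptidyl peptidase, and Vav2, an exchange factor of small GTPases, had differences of -0.62 ± 0.12, -0.72 ± 0.15, -0.79 ± 0.17 and -0.52 ± 0.11 (adjusted p = 0.0293, 0.0336, 0.034 and 0.034).

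Few members of the lists differed in this test. Over all libraries Sqle and Idi1 were the only called members of the 48 lists. Without SG WD libraries 5 and 7 those called included Fitm2 with -1.15 ± 0.22 (adjusted p = 0.0167) and Acads with -0.74 ± 0.18 (adjusted p = 0.039). So were Lipe, a lipase on droplets, with -1.27 ± 0.28 (adjusted p = 0.0255) and Bckdk, the kinase that curbs branched-chain breakdown, with -0.64 ± 0.14 (adjusted p = 0.0302), the last named after its value was seen. Fitm2 stood at 26.6 to 39 CPM in SG P21 livers and 75.8 to 87.9 CPM in these 6 SG WD livers, and at 42.1 to 78.9 CPM in sham P21 livers and 61.2 to 89.5 CPM in sham WD livers. A difference that misses the threshold does not show that the operations respond alike. For Insig1 it was -1.24 ± 0.51 (adjusted p = 0.266).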

How the data were processed

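Polyadenylated liver RNA was made into stranded libraries and read in pairs of 150 bases, per the labels' protocols. The authors deposited expected counts of 56884 Ensembl IDs, unnormalized, which come from RSEM, going by the name of the deposited sheet. The submitters' processing notes name GRCm39, R 4.4.1, edgeR and limma, with no role. No aligner or annotation is given in the sources used here. The authors' deposited table of comparisons, with log2 fold changes, p-values and F scores of SG against sham, served only for gene symbols (15523 IDs), and a GENCODE table of gene names gave 36760 more. Of the columns of counts 0 were left unmatched to a sample.

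After rounding to whole numbers they entered edgeR 4.0.16 in R 4.3.3 (filterByExpr, TMM, quasi-likelihood test, two-sided, Benjamini and Hochberg). The 9 groups with more than 1 library, 56 libraries, were fitted together with 47 residual degrees of freedom. The biological coefficient of variation was 28.2%. Labels give no batch and no cages for the pair-housed mice, so p-values take mice as independent. All 43 pairs of libraries within a group differed by more than sampling noise would give, with a chi-square of at least 19.18 per degree of freedom.

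Named genes are the 15 highest and 15 lowest fold changes among genes called with and without SG WD libraries 5 and 7, up to 4 members of each of 48 lists by adjusted p, a fixed panel of metabolic genes, and the 10 lowest adjusted p-values of the difference of diet effects. The first and last sets leave out predicted, pseudogene and receptor segment symbols, and all but the panel need a mean log2 CPM of at least 1. The text gives some of them, and others are not reported here. Genes outside this rule are marked as named after their values were seen. Members and lists were chosen with earlier results of these data known, so list counts stand beside those over all genes and no list was tested. Of 1062 list members 16 were matched by an older name and 9 were not matched. Fits were tested on simulated counts. Alternatives were RLE scaling, no filter on low counts, DESeq2 1.42.0, limma-voom 3.58.1 with and without scaling factors, the compared groups alone and leaving out libraries.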

Additional observations from a re-analysis of the deposited data

Results flagged for a closer look

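Among the genes named, Adipoq left out, 12 of 264 sets of group values (4.55%) held a library whose distance to the nearest other of its group passed Dixon's 95% limit. Chance alone gives about 1 in 20. In SG P21 they were Trem2 in library 4 (0.81 CPM, low), Rhbg in library 4 (1.3 CPM, low), Pls1 in library 3 (3.92 CPM, high), Ogfr in library 5 (33.2 CPM, high) and Irs1 in library 5 (16.3 CPM, low). Library 4 has the fewest counts of the group, 6.99 M, and its part in the low values was not tested. In SG WD they were Slc5a1 (138 CPM), Ace (58.5 CPM) and Fosl2 (25.5 CPM) in library 1, all high, Mcm3 in library 2 (16.7 CPM, high), Apoh in library 4 (2242 CPM, high), Elovl5 in library 5 (324 CPM, low) and Zfp948 in library 3 (2.58 CPM, low).

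The diet effect differed between sleeve and sham mice, by the test of the difference (edgeR, adjusted p under 0.05), for Sqle at -4.54, Idi1 at -4.00, Parp10 at -0.87, Poll at -0.81, Dpp3 at -0.79, Ogfr at -0.77, Nlrx1 at -0.73, Szrd1 at -0.72, D17H6S53E at -0.62, Vav2 at -0.52 and Zfp948 at 0.95 log2. Those of Sqle and Idi1 were -1.21 and -0.84, and not called, without SG WD libraries 5 and 7. None of the differences was called without SG P21 library 2, 4 or 7, or with limma-voom on total counts alone.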

How the results depend on the processing

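No paired analysis was possible because the labels give no number that SG P21 and SG WD mice share. Of 132 genes named, Adipoq left out, 121 were called, and 94 of these were called in the same direction under every alternative. Signs were reversed for S100a8 and S100a9 without SG WD libraries 5 and 7 (0.50 and 0.85, or 0.52 and 0.86 with only the compared groups fitted), and for Slc5a1 with DESeq2 (0.44) and without SG WD library 1 (leaving out 1 library gave -3.09 to 0.50). The cause was not tested. Leaving out 1 library gave 1435 to 2036 genes higher and 2083 to 3070 lower, and after SG WD libraries 5 and 7, 1609 to 2065 higher and 1787 to 2562 lower. The count of higher genes was 1022 with limma-voom on total counts alone. The difference of diet effects was called for 36 genes with RLE scaling, 3 with no filter on low counts, 141 with DESeq2, 9 with limma-voom, 0 on total counts alone (1609 at an unadjusted p under 0.05), 101 without SG WD libraries 5 and 7 and 155 when only the compared groups were fitted without these, and for 0 to 144 with 1 library left out. SG P21 library 4, with 6.99 M counts, is the least precise of the 14, and with 6 against 8 mice small changes may be missed.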

Other observations

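Clock genes, which cycle over the day, were in part higher in SG P21 livers. Of 21 tested 5 rose and 1 fell (median 0.32), and 4 rose and 1 fell in the 6-against-6 comparison. The number that rose was 2 without SG WD library 1 and 3 without SG WD library 4 or 7 or SG P21 library 3, 5 or 7, and the number that fell was 0 without SG P21 library 7. All genes had 12.4% higher over the 14 libraries, and counts of 2 and 3 lie near that share. Per3, a period gene, rose by 0.84 ± 0.21 (adjusted p = 0.00276), and Ciart, a clock repressor, by 1.05 ± 0.30 (adjusted p = 0.00744).

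Of 34 genes of complement and coagulation 8 rose and 5 fell, the same numbers as in the 6-against-6 comparison. Serpind1, an inhibitor of thrombin made by hepatocytes, rose by 0.69 ± 0.13 (adjusted p = 6.62e-05), and Klkb1, plasma prekallikrein, by 0.74 ± 0.14 (adjusted p = 0.000174). C1qc, a chain of complement C1q made by macrophages, fell with -1.37 ± 0.30 (adjusted p = 0.000596). Among cytosolic heat shock chaperones 4 of 15 rose and 2 fell. Hspa1b, the inducible HSP70, fell with -2.09 ± 0.43 (adjusted p = 0.000312), while Hsp90aa1, an HSP90, rose by 0.90 ± 0.20 (adjusted p = 0.000942). Of 13 genes encoded in mitochondrial DNA 6 rose, and 3 in the 6-against-6 comparison, without SG WD library 1, 2, 5, 6 or 7 and without SG P21 library 4 or 7. Their share of all counts was 6.88% to 12.81% in SG P21 libraries and 5.57% to 9.65% in SG WD libraries.

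For the remaining lists the second number of each pair is that of the 6-against-6 comparison. Of 33 drug-metabolizing P450s and their receptors 2 and 1 rose, or 7 without SG WD library 4, and 2 and 3 fell, or 1 without SG WD library 1, 2 or 6 or SG P21 library 2, 4 or 5. Of 24 NRF2 targets 2 and 2 rose, and 6 and 7 fell. Of 16 metallothionein and iron genes 2 and 3 rose, or 4 without SG WD library 5 and 1 without SG P21 library 7, and 2 and 2 fell, or 6 without SG P21 library 5 and 4 without SG WD library 2 or 8. Of 9 fructose genes 1 and 3 fell, or 2 without SG WD library 6 or 7. Of 36 nuclear-encoded respiratory chain genes 5 and 8 fell, or 2 without SG WD library 4 or SG P21 library 3. Of 35 ribosomal protein genes 4 and 4 rose, or 2 without SG WD library 1, 2 or 6, and 9 and 6 fell, or 4 without SG WD library 4. Of 20 sinusoidal endothelial genes 2 and 1 rose, or 1 without SG WD library 1, 3, 5, 6 or 7 or SG P21 library 1, 2 or 5. In the same list 6 and 2 fell, or 2 or 3 without SG WD library 5 or SG P21 library 2, 4 or 7. Of 9 B and plasma cell genes 0 were called by edgeR, with 2 at an unadjusted p under 0.05, and of 5 pancreas genes 0, with 0 at an unadjusted p under 0.05.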
